A study of Mus musculus with 4 samples.

Results

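The genes described here code for the proteins of the cytosolic ribosome. A gene was included when its symbol was Rpl or Rps with a number (and up to a letter and a further digit), Rplp0, Rplp1, Rplp2 or Rpsa. Pseudogenes marked -ps and the S6 kinases (Rps6k) were left out. This gave 61 of the 19938 genes measured by probes with exactly 1 gene, 38 of the large (60S) and 23 of the small (40S) subunit. RefSeq lists 60 of the 61 as protein-coding and Rps4l as a transcribed pseudogene. Another 17 symbols of the same form, among them Rpl3, Rpl11, Rpl39, Rps26 and Rps27, lie only on probes shared by several genes and were not analysed here as members, and Rps27a was not analysed here. The cells were peritoneal macrophages from wild type C57BL/6 mice of 8 to 12 weeks, elicited with 1 mL of 4% thioglycolic acid given into the peritoneum 3 days before harvest. Adherent cells were kept for 6 h in 4 groups. The control group had no fatty acid, and its labels name bovine serum albumin (BSA) alone, while the protocol describes the vehicle as ethanol and KOH. The other groups had 500 µM of a fatty acid bound to BSA. Palmitic acid is saturated and has 16 carbons. Oleic acid has 18 carbons and 1 double bond, and linoleic acid, also of 18 carbons, has 2. For each group, RNA from 3 samples was combined and measured on 1 Affymetrix array. It is not stated whether the pooled samples came from separate mice. Without replicates there is no spread between samples, so no difference below has a test or an error, and none can be separated from variation between cultures or arrays. With 4 arrays in all, precision is limited throughout.

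Ribosomes translate all of a cell's mRNA. Each ribosome holds a single copy of nearly every one of its proteins, and the mRNAs for these proteins are among the most abundant in a growing cell. In mammals most of these mRNAs begin with a C followed by an unbroken run of pyrimidines, the 5′ terminal oligopyrimidine (TOP) motif, through which mTOR and the RNA-binding protein LARP1 control their translation and stability. Macrophages adjust protein synthesis when they are activated or stressed. Control of TOP mRNAs acts largely on translation, which an array of total RNA does not measure.

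Promoter and start site sequences are shown because the choice of members by symbol did not use them. RefSeq promoters (GRCm38.p6, 250 bases before to 50 after an annotated start) were matched by symbol for 49 of the 61 genes, as 58 promoters. A C at the annotated start followed by at least 4 more pyrimidines, on the gene's own strand, was found in 10 of the 58 (17.2%), against 2.51% of all 32851 promoters. The 30 bases around the start of 5 genes to which the results return are printed with the run in capitals, from 15 bases before the start onward. They lie at chr4:86857353-86857382 (Rps6, minus strand), chr7:118116133-118116162 (Rps15a, minus strand), chr7:141447636-141447665 (Rplp2, plus strand), chr9:120571502-120571531 (Rpl14, plus strand) and chr10:20208424-20208453 (Rpl32l, plus strand).
Rps6: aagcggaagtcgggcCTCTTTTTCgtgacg
Rps15a: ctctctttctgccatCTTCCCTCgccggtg
Rplp2: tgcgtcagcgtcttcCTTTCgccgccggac
Rpl14: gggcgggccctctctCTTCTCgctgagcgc
Rpl32l: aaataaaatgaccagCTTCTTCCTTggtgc
The run is 9 bases long in Rps6, 8 in Rps15a, 5 in Rplp2, 6 in Rpl14 and 10 in Rpl32l. An annotated start can lie a few bases from the start a cell uses, so the absence of a run at that base says only that these letters do not begin there.

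Of all words of 10 letters, read on both strands, the palindrome TCTCGCGAGA occurred in the most members, 6 genes, and the next word in 5. It was present in 7 of the 58 promoters (12.1%), against 0.466% of all promoters, and was picked from these promoters. It is shown in capitals, in 40 bases, for Rpl12 (chr2:32961643-32961682, plus strand), Rps6 (chr4:86857394-86857433, minus strand) and Rps19 (chr7:24884569-24884608, plus strand).
Rpl12: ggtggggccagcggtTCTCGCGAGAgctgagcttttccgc
Rps6: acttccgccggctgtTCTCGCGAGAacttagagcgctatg
Rps19: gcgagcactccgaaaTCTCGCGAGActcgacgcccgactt
TTCCGG, the core bound by ETS factors such as GABP, was present on either strand in 27 of 58 (46.6%), against 14.9% of all promoters. CACGTG, the E box bound by MYC, was present in 7 (12.1%), against 7.15%. The TATA box letters TATAAA were present on either strand in 6 (10.3%), against 13.6%. TTCCGG and TCTCGCGAGA do not overlap by their letters.

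The arrays themselves were checked against cell type markers. Of 17 macrophage markers, 16 passed the brightness filter and Cd163 did not. The log2 of the summed level of all 17 lay between 16.68 and 16.77 on the 4 arrays. Single markers among the 16 moved further than the sum. Their differences from the control ran from -0.66 to 0.51 with palmitic, -0.17 to 0.65 with oleic and -0.066 to 0.24 with linoleic acid. Of 13 mesothelial and fibroblast markers, 9 passed. The log2 of the sum over all 13 was 12.53 on the control array, 12.13 with palmitic, 12.40 with oleic and 12.61 with linoleic acid. Among them Pdgfrb stood at 10.04, 8.74, 9.33 and 10.20 in that order. Few markers of other cells passed: 3 of 10 for neutrophils, 1 of 8 for B cells, 1 of 8 for T and NK cells, and 3 of 10 for mast cells and eosinophils. The log2 of the sum over all 10 neutrophil markers, passed or not, ran from 11.73 to 12.04. Over all 10 mast cell and eosinophil markers it ran from 10.53 (palmitic acid) to 11.46 (linoleic acid). In pooled bulk RNA, fewer cells of a type and less RNA per cell cannot be told apart. The part of other cells in the differences below was not tested.

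Values are log2 intensities normalised together by RMA, which forces all 4 arrays to nearly the same distribution. A gene passed the filter when its highest value on the 4 arrays was at or above log2 7.09, the median of all values. That held for 59 of the 61 ribosomal protein genes (36 of 38 for 60S, 23 of 23 for 40S) and 11174 of all genes, which are the background below. Rpl3l, the paralog of Rpl3 found mainly in muscle, and Rpl39l, a testis paralog of Rpl39, did not pass. The other 59 ran from log2 6.66 to 13.45, and 20 of them averaged log2 12 or more, where 626 of all genes that passed lie. Of the 217 single-gene probes for the 61 genes, 171 (78.8%) were in the brightest 10% of probes. The median spread from a ribosomal protein gene's lowest to its highest array was 0.13 in log2 (1.09-fold), against 0.22 (1.17-fold) over all 11174 genes. The sets differ in probes per gene: 39 of the 59 have several, while 10464 of the 11174 have 1. Averaging over probes can narrow a spread, and its part here was not tested. Nothing in this gene class moved far: over the 59 genes and all 6 comparisons, no difference was wider than the -0.46 of Rpl32l with oleic acid. A fold of 1.2 (0.26 in log2) is used to count genes.

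**Figure D1:**
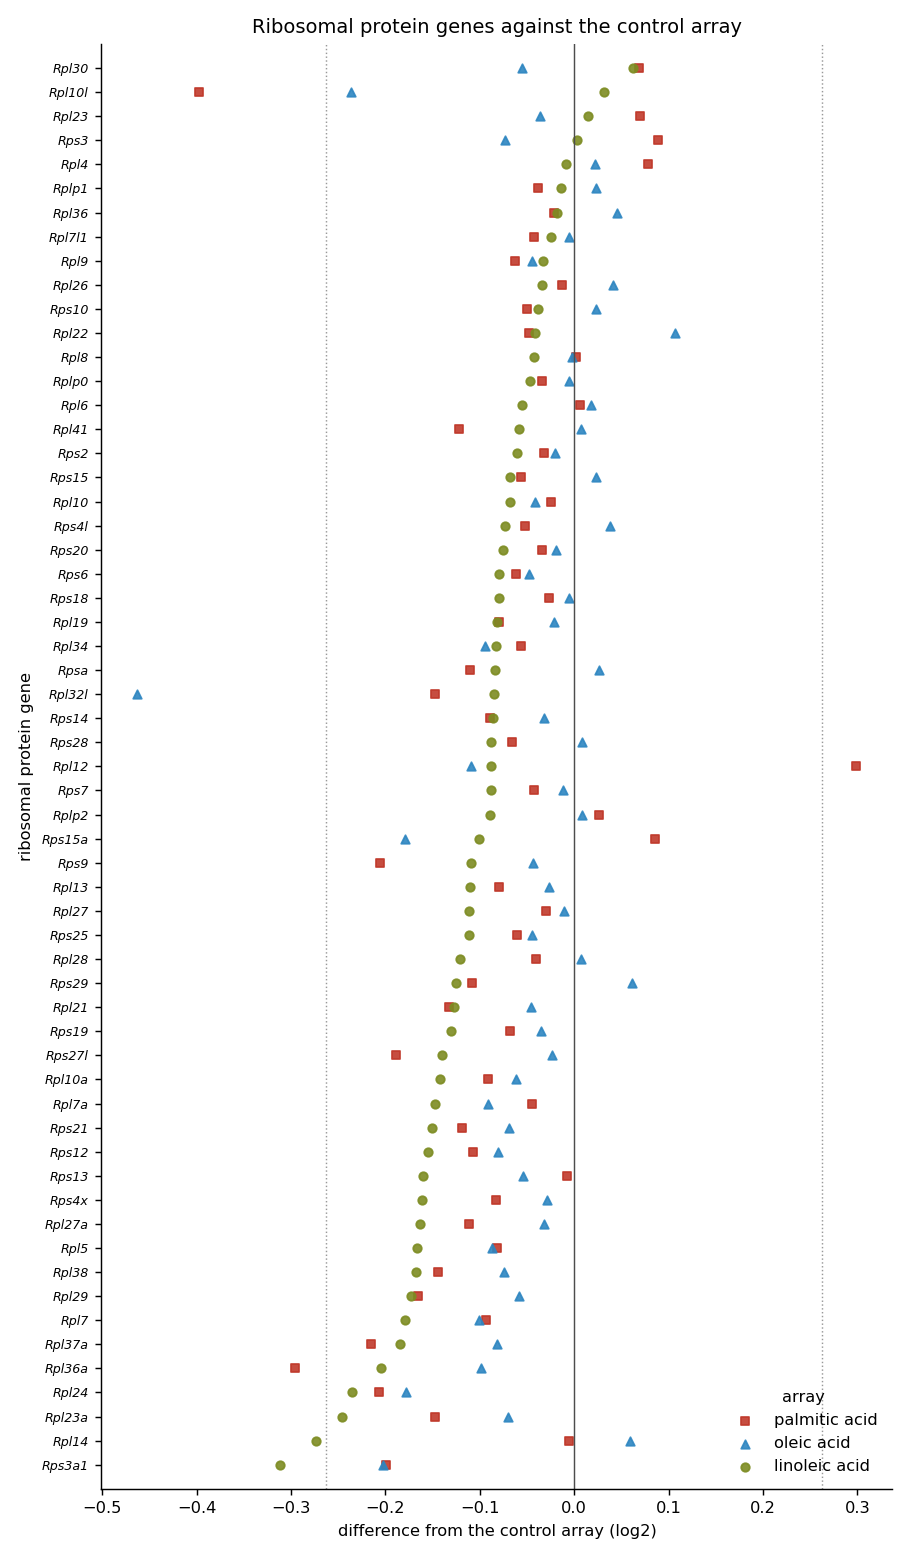
Difference from the control array, in log2, for each of the 59 ribosomal protein genes that passed the brightness filter (1 row per gene), with 1 point for each fatty acid array; dotted lines mark 1.2-fold. Most points lie a little to the left of 0, and the few beyond the dotted lines are Rpl12, Rpl10l, Rpl36a, Rpl32l, Rps3a1 and Rpl14.

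The question for each fatty acid was how the ribosomal protein mRNAs compared with those of untreated macrophages. All 3 comparisons use the same control array, so a low or high value there enters each of them, and they are given side by side without an overlap. With palmitic acid, 50 of the 59 genes lay below the control and 9 above. The background was 49.9% of all genes below. The median difference was -0.061 in log2 (0.959 times the control), against 0.00 for all genes. After a repeated quantile normalization these were -0.085 and -0.035. Over all 61 genes without the filter, 51 lay below, at the same median of -0.061. Genes at least 1.2-fold lower were Rpl10l and Rpl36a, 2 of 59 (3.39%) against 8.72% of all genes, and the 1 gene at least 1.2-fold higher was Rpl12 (1.69%), against 12.1%. Both shares were under the background, so the class showed mostly small differences in the same direction. Most of its values average several probes, which can narrow differences.

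Rpl36a, which codes for a 60S protein at the site where spent tRNA leaves, stood at log2 12.27 on the control array, 11.97 with palmitic, 12.17 with oleic and 12.06 with linoleic acid. The control was the highest and the palmitic acid array the lowest, by -0.30 (0.814 times), and both of its probes were below 0 (-0.32 and -0.27). Rpl37a, a zinc-binding 60S protein gene with a single probe, read 12.15, 11.93, 12.06 and 11.96 in the same order, and its palmitic acid difference was -0.21. Rpl24, a 60S gene whose protein bridges the subunits, read 10.80, 10.59, 10.62 and 10.56, so that all 3 fatty acid arrays were low, at -0.21 for palmitic acid over 3 probes. Rps9, a gene of the 40S mRNA entry site, read 11.69, 11.48, 11.64 and 11.58, with the palmitic acid array the lowest at -0.21. Rpl10l, a testis retrocopy of Rpl10, read 7.06, 6.66, 6.82 and 7.09. It passed the filter only through the linoleic acid array, so its differences from that array are partly set by the filter.

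On the other side, Rpl12, which codes for the base of the ribosomal stalk, read 7.10 on the control array, 7.40 with palmitic, 6.99 with oleic and 7.01 with linoleic acid. Palmitic acid was highest, at 0.30 (1.23 times). This rests on 1 probe near the brightness limit, and the other probes that list Rpl12 also list further genes. Rps3, a 40S gene whose protein also acts in DNA repair, read 11.14, 11.23, 11.06 and 11.14, with palmitic acid higher by 0.089. Rps15a, a 40S gene, read 8.87, 8.95, 8.69 and 8.76, and palmitic acid was higher by 0.086. Rpl4 (11.24, 11.32, 11.26 and 11.23) was higher by 0.078 and Rpl23 (10.66, 10.73, 10.63 and 10.68) by 0.070. The Rpl23 values average 2 unlike probes, at 12.34 and 8.99 in the control, which rose by 0.0051 and 0.13. Rps3, Rps15a, Rpl4 and Rpl23 were within 1.2-fold of the control.

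With oleic acid the ribosomal protein genes lay closest to the control. Below it were 43 of 59, against a background of 44.6% of all genes, and above it 16. The median was -0.032 (0.978 times), against 0.015 for all genes, and over all 61 genes it was -0.032 with 45 below. The only gene at least 1.2-fold lower was Rpl32l, 1 of 59 (1.69%) against 2.53%, and 0 were that much higher, against 4.02%. Rpl32l, a like-named relative of Rpl32 on chromosome 10 whose start is printed above, read 9.49 on the control array, 9.35 with palmitic, 9.03 with oleic and 9.41 with linoleic acid. Only the oleic acid array stood low, by -0.46 (0.726 times), on 1 probe. Rpl10l (-0.24), Rps3a1 (-0.20), Rps15a (-0.18) and Rpl24 (-0.18) followed. Rpl22, a 60S gene known for its part in T cell development, was the highest, from 8.14 in the control to 8.24, a difference of 0.11. Rps29 (0.061), Rpl14 (0.059), Rpl36 (0.046) and Rpl26 (0.041) came after it.

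With linoleic acid the direction was the most uniform. Of the 59 genes, 55 lay below the control and 4 above, while 34.8% of all genes were below. The median was -0.088 (0.941 times), against 0.042 for all genes. The value for all genes depended on the scaling: it was 0.0063 with arrays centred on their medians and -0.0032 after a repeated quantile normalization, where ribosomal protein genes had -0.12 in both. Over all 61 genes the median was -0.088, with 56 below. Few differences were large: Rps3a1 and Rpl14 were at least 1.2-fold lower, 2 of 59 (3.39%) against 1.09% of all genes, and 0 were that much higher, against 3.23%. The SD among the 59 differences was 0.073, against 0.10 with palmitic acid and 0.084 with oleic acid.

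Rps3a1, a 40S gene whose protein lies near the mRNA exit, read 8.98 on the control array, 8.78 with palmitic, 8.78 with oleic and 8.67 with linoleic acid. All fatty acid arrays were below the control, linoleic acid furthest at -0.31 (0.805 times), on 1 probe. Rpl14, a 60S gene with a pyrimidine run at its start, read 8.53, 8.53, 8.59 and 8.26. Only linoleic acid was low there, by -0.27 (0.828 times), again on 1 probe. Rpl23a, whose protein sits at the mouth of the exit tunnel, read 11.22, 11.07, 11.15 and 10.97 over 13 probes. Linoleic acid was lowest at -0.25, and its probes ran from -0.35 to -0.20. Rpl24 was lower by -0.24 over 3 probes and Rpl36a by -0.20 over 2 probes. The genes above the control were Rpl30 (9.33, 9.40, 9.28 and 9.39, a difference of 0.062), Rpl10l (0.032), Rpl23 (0.015) and Rps3 (0.0028). Of these, Rpl10l passed the filter only through the linoleic acid array. The bright probe of Rpl23 was at -0.0056 and the dim one at 0.035. Rpl4, next in order, was at -0.0087.

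**Figure D2:**
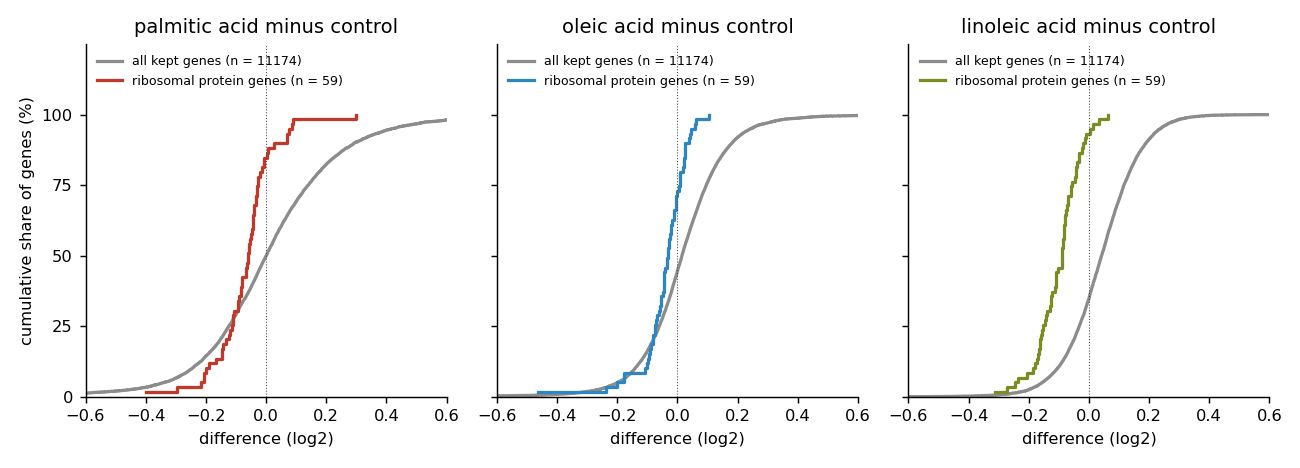
Cumulative share of genes (vertical axis) at or below each log2 difference from the control (horizontal axis), 1 panel per fatty acid, for the 59 ribosomal protein genes and for all 11174 genes that passed the filter. The ribosomal protein curve is steeper and its median lies left of that of all genes. The medians are -0.061, -0.032 and -0.088 for palmitic, oleic and linoleic acid, beside 0.00059, 0.015 and 0.042 for all genes.

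The fatty acids were also set against each other at the same dose and time, over 3 pairs and without a test, since each is 1 array. Oleic and linoleic acid are equally long, and linoleic acid has a further double bond. The linoleic acid array was below the oleic acid array in 50 of 59 genes, against 44.7% of all genes, with a median of -0.074 (0.95 times) against 0.018. The sign for all genes turned with the scaling, to -0.038 with centred arrays and -0.030 after a repeated quantile normalization, where ribosomal protein genes had -0.130 and -0.092. Rpl32l (9.41 against 9.03, a difference of 0.38) and Rpl10l (0.27) exceeded oleic acid by at least 1.2-fold, 2 of 59 (3.39%) against 7.14%. Rpl10l passed the filter only through the linoleic acid array, so its place in this count is partly set by the filter. Rpl14 (8.26 against 8.59, a difference of -0.33) was the 1 gene that much lower (1.69%), against 4.16%. Next came Rps29 (-0.19), Rpl23a (-0.18), Rpl22 (-0.15) and Rps4x (-0.13) on the lower side, and Rpl30 (0.12), Rps15a (0.078) and Rps3 (0.076) on the higher side.

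The palmitic acid array was below the oleic acid array in 43 of 59 genes, against 54.1% of all genes, with a median of -0.033 against -0.019. Other genes of 2 to 4 kb, the commonest length among ribosomal protein genes, had a median of -0.092 and 71.8% below 0, and relative to them the ribosomal protein median turned to 0.059. Higher by at least 1.2-fold were Rpl12 (0.41), Rpl32l (0.32) and Rps15a (0.26), 3 of 59 (5.08%) against 13.0%, and 0 were that much lower, against 11.4%. Rps3 (0.16) and Rpl30 (0.12) came next on the higher side. The lowest were Rpl36a (-0.20), Rps29 (-0.17), Rps27l (-0.16), Rps9 (-0.16) and Rpl10l (-0.16).

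Palmitic acid lay below linoleic acid in 16 of 59 genes, against 57.5% of all genes, with a median of 0.029 against -0.031, and of 0.112 relative to other genes of 2 to 4 kb. Rpl12 (0.39) and Rpl14 (0.27) exceeded linoleic acid by at least 1.2-fold, 2 of 59 (3.39%) against 8.41%. Rpl10l (-0.43) was that much lower, 1 of 59 (1.69%) against 10.8%. It passed the filter only through the linoleic acid array, so this count is partly set by the filter. Rps15a (0.19), Rps13 (0.15) and Rplp2 (0.12) followed upward. Rps9 (-0.096), Rpl36a (-0.092), Rpl32l (-0.063) and Rpl41 (-0.063) followed downward.

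Both subunits gave like values. For palmitic acid the median was -0.052 over 36 genes of 60S and -0.061 over 23 genes of 40S. For oleic acid it was -0.039 and -0.029, and for linoleic acid -0.086 and -0.088. Below the control with linoleic acid were 33 of 36 genes of 60S and 22 of 23 genes of 40S.

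The proteins of the acidic stalk recruit the elongation factors. Rplp0, which anchors the stalk, read log2 13.31 on the control array, 13.28 with palmitic, 13.31 with oleic and 13.27 with linoleic acid. Rplp0 is a common reference gene, and its widest difference from the control was -0.047, with linoleic acid. Rplp1 read 12.17, 12.13, 12.19 and 12.15, with oleic acid slightly highest. Rplp2 read 7.31, 7.34, 7.32 and 7.22, and linoleic acid was the lowest at -0.090, on 1 probe. With Rpl12 at the base, all 4 stalk genes lay below the control with linoleic acid, and 2 of 4 did so with palmitic acid and with oleic acid.

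Rpl5 carries the 5S rRNA into the large subunit and, when assembly fails, binds MDM2 and so stabilises p53. It read 12.03 on the control array, 11.94 with palmitic, 11.94 with oleic and 11.86 with linoleic acid. The control was highest, and all 5 of its probes were below 0 for each fatty acid. Its partner Rpl11 was not analysed here. The 4 measured genes of the exit tunnel and its rim (Rpl4, Rpl19, Rpl23a and Rpl26) had medians of -0.046, 0.00043 and -0.058 for palmitic, oleic and linoleic acid. Rpl19 read 12.95, 12.87, 12.93 and 12.87, and Rpl26 read 10.96, 10.95, 11.00 and 10.93, so the palmitic acid array was low for Rpl19 and near the control for Rpl26.

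On the small subunit, Rps2, Rps3 and Rps9 line the mRNA entry, with medians of -0.032, -0.043 and -0.061 in the same order of fatty acids. Rps2 read 12.85, 12.82, 12.83 and 12.79, an even series beside the wider one of Rps9. At the mRNA exit, Rpsa, which also codes for the laminin receptor precursor, read 10.59, 10.48, 10.62 and 10.51. Its 5 probes did not agree for linoleic acid, running from -0.27 to 0.04. Rps14 and Rps28 were the other measured genes of the list for that site (3 of 5 listed), with medians of -0.090, 0.0082 and -0.086. Rps3a1, described above as near the exit, was not on that list and differed by -0.20, -0.20 and -0.31. Rps15, whose protein reaches the decoding centre, read 12.76, 12.70, 12.78 and 12.69, with palmitic and linoleic acid low. Rps6, the target of the S6 kinases downstream of mTOR, read 13.45, 13.39, 13.40 and 13.37. The control was highest, and all 8 Rps6 probes were below 0 for each fatty acid.

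Inherited loss of a copy of some of these genes causes Diamond-Blackfan anaemia. Of 10 such genes listed, 5 were measured (Rps7, Rps10, Rps19, Rps28 and Rpl5), with medians of -0.066, -0.012 and -0.088. All 5 lay below the control with palmitic and with linoleic acid. Rps19, the gene most often affected in that disease, read 11.09, 11.02, 11.06 and 10.96 on 1 probe, lowest with linoleic acid at -0.13.

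Several members are like-named paralogs, and a probe can bind the mRNA of a close copy, so their values are uncertain. The same limit holds for Rpl32l, described above. Rpl7l1, a factor of large subunit assembly, read 11.06, 11.02, 11.05 and 11.04, while its partner Rpl7 read 11.16, 11.07, 11.06 and 10.98. Linoleic acid differed by -0.024 for Rpl7l1 and by -0.18 for Rpl7. Rpl10, the partner of Rpl10l and a late-joining 60S protein gene, read 13.45, 13.42, 13.40 and 13.38, and all 6 of its probes were below 0 in each comparison with the control. Rps4x, the X-linked 40S gene, read 12.15, 12.07, 12.12 and 11.99. Rps4l, its autosomal copy, read 8.25, 8.20, 8.29 and 8.18, and its 2 probes disagreed with linoleic acid (0.04 and -0.19). Rps27l, a p53-responsive paralog of Rps27, read 11.67, 11.48, 11.64 and 11.53, lowest with palmitic acid at -0.19. Rpl22l1, Rps27, Rpl3 and Rpl39 were not analysed here. The pseudogenes Rpl14-ps1 and Rps19-ps3, which the choice of members left out, lay below the control on all arrays. Rps19-ps3 read 7.72, 7.10, 7.33 and 7.15, a wider spread than that of Rps19. Fau, which codes for a 40S protein fused to a ubiquitin-like one, differed by -0.027, 0.072 and -0.059.

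The probes of a gene gave a check within each array. Of the 217 probes, 199 lay below 0 for palmitic acid, 159 for oleic acid and 205 for linoleic acid. Over all 35556 probes, 51.0%, 49.7% and 39.4% lay below 0 in the same order. Among the 39 genes with several probes, every probe was below 0 in 32, 19 and 33 genes, and every probe was above 0 in 1, 6 and 0 genes. The like counts for other genes with several probes were not made. The median SD between the probes of a gene was 0.020, 0.022 and 0.027. The 14 probes of Rps12, a 40S gene, were all below 0 in each of the 3, with means of -0.11, -0.080 and -0.15. These probes are not independent: they read the same RNA on the same array, and in 5 genes some had identical values on all arrays, which left 205 distinct series of values. All 3 probes of Rpl41 were identical, as were some of the probes of Rps12, Rpl23a, Rpl27 and Rps28. The genes with 1 probe were more scattered. Their SD was 0.15 with palmitic acid and 0.094 with linoleic acid, against 0.064 and 0.060 for genes with several probes, and 5 of the 6 genes beyond 1.2-fold of the control had 1 probe. Of the 20 genes with 1 probe, 10% were at least 1.2-fold lower with linoleic acid, against 1.09% of all genes. With palmitic acid 5% were that much lower and 5% higher, against 8.72% and 12.1%. For palmitic minus oleic acid 15% were higher, against 13.0%.

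**Figure D3:**
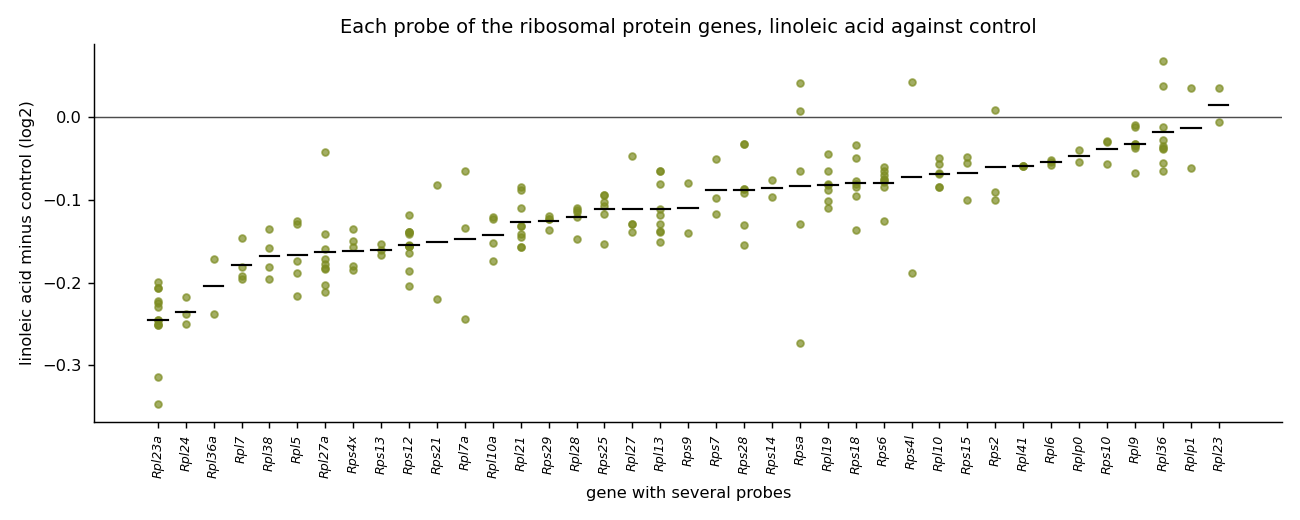
Difference between the linoleic acid and control arrays, in log2, for each probe (1 point) of the 39 ribosomal protein genes with several probes, 1 column per gene. In 33 of the 39 genes all points lie below 0, and Rpsa, Rps4l, Rps2, Rplp1, Rpl36 and Rpl23 have points on both sides.

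Ribosomal protein genes are short, and differences with palmitic acid varied with gene length over the whole array. The median span from first to last base in RefSeq was 3.18 kb for the 59 genes (0.592 to 11.8 kb) and 21.0 kb for all genes that passed. Among other genes, the median palmitic acid difference was -0.075 for spans up to 2 kb, -0.072 for 2 to 4 kb, -0.040 for 4 to 8 kb, -0.0043 for 8 to 20 kb, 0.029 for 20 to 60 kb and 0.042 above that. Ribosomal protein genes gave -0.087 (10 genes), -0.061 (27), -0.050 (17) and -0.048 (5) in the first 4 of these classes. With palmitic acid, then, they lay within 0.05 of other genes of their length, and relative to other genes of 2 to 4 kb their median of -0.061 turned to 0.011. With linoleic acid the values of other genes were -0.0035, 0.0093, 0.027 and 0.037, and those of ribosomal protein genes were -0.079, -0.11, -0.084 and -0.082, lower in each class. With oleic acid other genes gave 0.00091, 0.024, 0.035 and 0.025, and ribosomal protein genes 0.0077, -0.045, -0.024 and -0.021. The part of gene length in the differences was not tested.

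**Figure D4:**
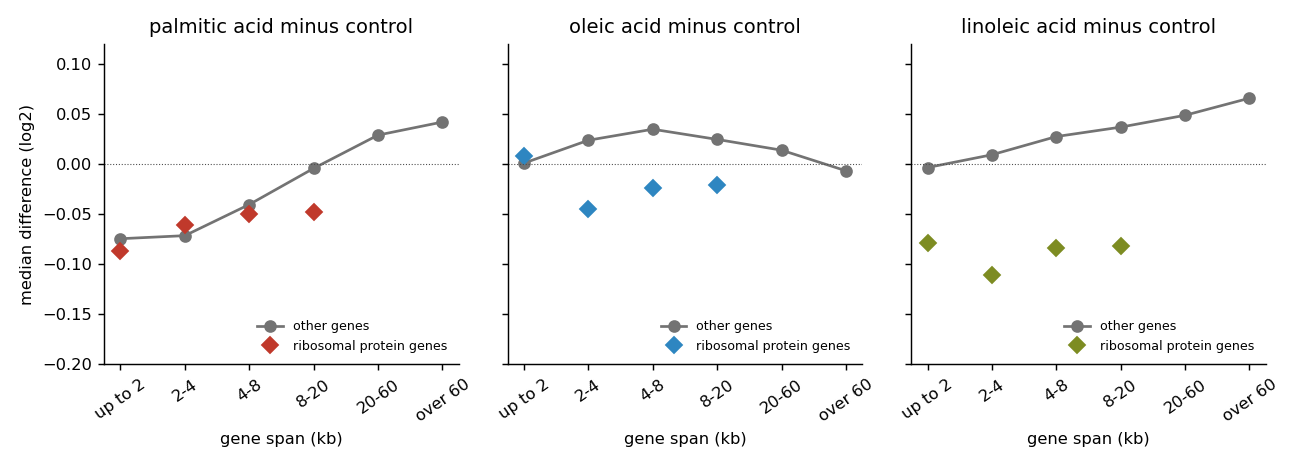
Median log2 difference from the control (vertical axis) by gene span in kb (horizontal axis), 1 panel per fatty acid, for ribosomal protein genes and for other genes that passed the filter. With palmitic acid both lie at -0.087 to -0.040 up to 8 kb, while with linoleic acid, up to 20 kb, ribosomal protein genes lie at -0.11 to -0.079 and other genes at -0.0035 to 0.037.

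Genes were also compared within classes of brightness, which held 58 of the 59. In each of the 7 classes of mean log2 value from 7 to above 13, ribosomal protein genes had a lower median than other genes with linoleic acid. In the class from 12 to 13, for example, it was -0.079 for 16 ribosomal protein genes and 0.036 for 457 others. In the class above 13, it was -0.074 for 4 and 0.0025 for 149. With palmitic acid the same classes gave -0.071 against 0.010, and -0.038 against 0.00061. The class from 7 to 8 went the other way, at 0.16 for 2 ribosomal protein genes (Rpl12 and Rplp2) against -0.056 for 3246 others, while the other 6 classes were lower for ribosomal protein genes. Members with and without a pyrimidine run at the annotated start had medians of -0.045 and -0.063 for palmitic acid, -0.027 and -0.035 for oleic acid, and -0.096 and -0.088 for linoleic acid. Start sequences such as those printed for Rps6 and Rplp2 thus went with values like those of the other 37 matched genes that passed.

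Other genes of the same pathway gave other values. Of 65 ribosome assembly genes, whose products process rRNA and fold it with the ribosomal proteins, 60 lay above the control with palmitic acid, with 21 at least 1.2-fold higher, 1 that much lower, and a median of 0.19. Over all genes 50.1% lay above, 12.1% were that much higher and 8.72% lower. Nop58, a core protein of rRNA-methylating particles, read 8.25 on the control array, 9.06 with palmitic, 8.10 with oleic and 8.32 with linoleic acid. Noc3l (9.04, 9.66, 9.01 and 9.10) and Mdn1 (8.74, 9.26, 8.59 and 9.10), both of large subunit assembly, were also highest there. Ubtf, a factor of rDNA transcription, was lowest there (10.32, 9.79, 10.31 and 10.30). For oleic and linoleic acid the assembly medians were -0.040 and 0.052, beside 0.015 and 0.042 for all genes. The ribosomal protein medians of -0.061, -0.032 and -0.088 thus differ from them in sign for palmitic and linoleic acid.

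The 14 other genes known to have TOP mRNAs, elongation and initiation factors among them, had medians of 0.070, 0.015 and -0.026, with 9 of 14 below the control for linoleic acid, against 34.8% of all genes. Eif4b was 0.32 higher with palmitic acid. The 27 other initiation factor genes had medians of 0.10, -0.039 and 0.022, and Eif4e, which codes for the cap-binding protein, read 9.05, 9.54, 9.07 and 9.08. The 19 regulators of ribosomal protein mRNA gave 0.12, -0.041 and 0.089. Among them Myc, an activator of ribosome production, read 8.74, 9.25, 8.83 and 8.95, and Tsc1, an inhibitor of mTOR signalling, read 9.12, 9.62, 9.10 and 9.42. The 15 genes of ribosome quality control, which clears stalled ribosomes, gave 0.17, 0.029 and 0.061, and Gcn1, a sensor of collided ribosomes, was 0.38 higher with palmitic acid.

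Lists of other large complexes were set beside these values. The 77 mitochondrial ribosomal protein genes had medians of -0.056, -0.0041 and -0.014 for palmitic, oleic and linoleic acid, and the 46 proteasome genes 0.047, -0.036 and 0.021. The 77 genes of oxidative phosphorylation gave -0.13, 0.0026 and -0.062, with 66 of 77 below the control for palmitic acid (49.9% of all genes) and 57 of 77 for linoleic acid (34.8% of all genes). Uqcr11, a subunit of respiratory complex III, read 11.03, 10.47, 10.98 and 10.70. Respiratory genes thus also lay below the control on the same arrays, further than ribosomal protein genes with palmitic acid and less far with linoleic acid.

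**Figure D5:**
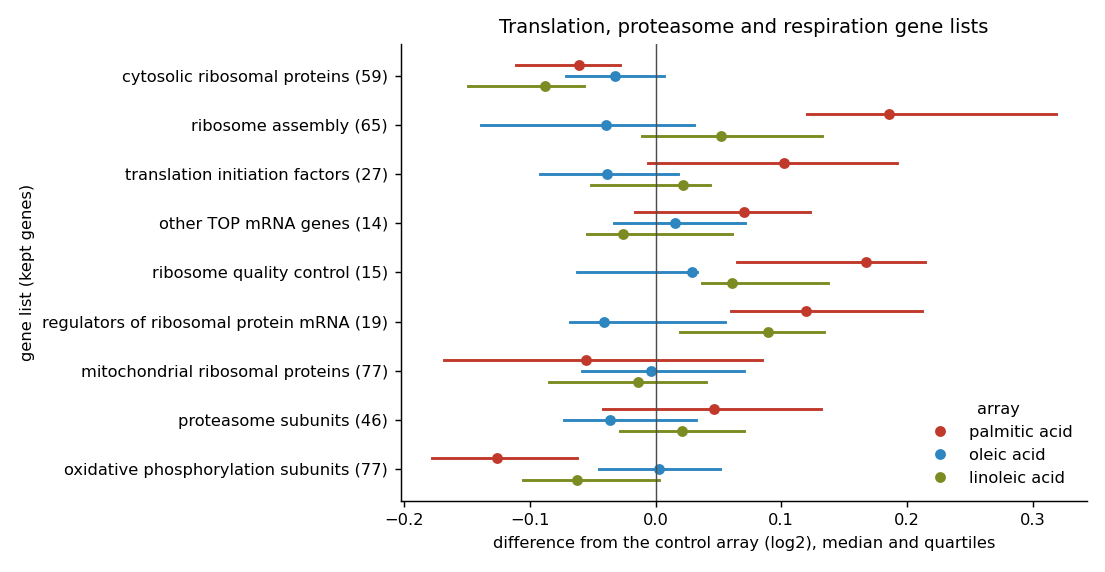
Median log2 difference from the control (points, horizontal axis) and the quartiles (bars) for gene lists of translation, the proteasome and respiration (rows), with 1 colour per fatty acid array. Ribosome assembly genes lie to the right with palmitic acid (0.19), cytosolic ribosomal proteins lie left of 0 for all 3, and oxidative phosphorylation genes lie furthest left with palmitic acid (-0.13).

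Introns of ribosomal protein genes house small nucleolar RNAs (snoRNAs), which guide rRNA modification and are cut from the same primary transcript. RefSeq places 40 snoRNA genes inside 20 of the members. Of these, 13 were measured and 10 passed the filter, in 9 hosts. Their medians were 0.095, 0.073 and 0.070 for palmitic, oleic and linoleic acid. Above the control were 7, 7 and 6 of the 10, against 50.1%, 55.3% and 65.2% of all genes. They lay above their host in 7, 7 and 8 of the 10. Other genes were not set against these hosts, so the counts above the host have no background. Snord15a passed the filter only through the oleic acid array, and Snora62 only through the oleic and linoleic acid arrays. Their oleic acid differences of 0.15 and 0.31, and the linoleic acid difference of 0.23 for Snora62, are thus partly set by the filter. The same holds for the snoRNA medians and counts with oleic and linoleic acid, which include them. Snord16a, inside Rpl4, read 8.92 on the control array, 9.48 with palmitic, 8.97 with oleic and 9.31 with linoleic acid, so palmitic and linoleic acid were high. Snora70, inside Rpl10, read 8.00, 8.43, 8.19 and 8.35 and was lowest in the control. In the other direction, Snora3, inside Rpl27a, read 9.20, 8.98, 8.81 and 9.01, with the control highest. These snoRNAs were named after their values were seen. A probe inside an intron can also read the host's unspliced transcript, and these sources cannot be told apart.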

How the data were processed

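RNA of 3 samples per group was hybridised to 1 array, without replicates. The deposited values are log2 intensities made by the authors with RMA, per the submitters' processing notes; its version is not given in the sources used here, nor is the build, and the log2 scale was read from the values. RMA equalises the distributions of the arrays, so a change shared by most genes is not visible. Probes with exactly 1 gene (21789 of 35556, per the platform annotation) were averaged per gene. Genes whose highest value was at or above log2 7.09 were kept. Per-gene differences were taken for 6 comparisons, and genes at least 1.2-fold apart were counted. No test was possible. Counts and medians were checked on simulated data with changes larger than those of the ribosomal protein genes. That check does not cover differences as small as theirs.

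The members and gene lists were chosen with earlier results of these data known. Named were the 5 genes furthest each way in each comparison, stalk genes, Rpsa, Rpl5, Rps6, Rps19, paralogs with their partners, and up to 4 genes per list; Rps12, Rps15, Rps2, Rpl19, Rpl26 and the snoRNAs were named in addition, after their values were seen. Names, spans and promoters came from RefSeq GRCm38.p6. Alternatives were other scalings, filters, probe rules, memberships and folds. Python 3.11.15, numpy 2.4.6, pandas 2.3.3 and matplotlib 3.10.9 were used.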

Additional observations from a re-analysis of the deposited data

How the results depend on the processing

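Every alternative was computed on the same 4 arrays, so none adds information on the spread between samples. No paired analysis was possible because each group is 1 array. The median linoleic acid difference of the ribosomal protein genes stayed between -0.130 and -0.084 over 12 alternatives, and that of oleic acid between -0.056 and -0.012. The references by gene medians were added after seeing the data: the median of all genes that passed, and that of other genes of 2 to 4 kb. Against genes of 2 to 4 kb, the palmitic acid median turned to 0.011 and that of palmitic minus oleic acid to 0.059, and palmitic minus linoleic acid moved to 0.112. With arrays centred on their medians, linoleic minus oleic acid moved to -0.130. Of 72 medians, 68 moved by less than 0.05 and kept their sign, 2 moved further and 2 reversed. Genes above 0 with linoleic acid became 1 with centred arrays and 1 after repeated quantile normalization, and those above 0 for linoleic minus oleic acid became 4 with centred arrays. Among the 20 genes with 1 probe, 5 were above 0 for oleic acid, 14 for palmitic minus linoleic acid and 10 for palmitic minus oleic acid.

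Counts beyond 1.2-fold were small and moved with most settings. At 1.5-fold they were 0 in every comparison. At 1.1-fold, the genes lower than the control numbered 11 for palmitic, 5 for oleic and 18 for linoleic acid. Between fatty acids, 6 were lower for palmitic minus oleic acid and 4 for linoleic minus oleic acid. For palmitic minus linoleic acid, 4 were higher. No share of all genes is given at 1.1-fold, so the counts at that fold have no background. Lower with linoleic acid were 4 genes with centred arrays, 4 after repeated quantile normalization and 1 under the filter at the 75th percentile. Lower with palmitic acid was 1 gene with centred arrays, repeated quantile normalization, the 75th percentile filter, the filter on the mean, genes with 1 probe, and without like-named paralogs. Higher with palmitic acid were 0 under the 75th percentile filter and 2 with probes of several genes included. Higher for linoleic minus oleic acid was 1 with centred arrays, the 75th percentile filter, the filter on the mean, repeated quantile normalization and without like-named paralogs. In the last of these settings the gene was Rpl32l, which was not among the paralogs removed. Lower for linoleic minus oleic acid were 0 under the 75th percentile filter. Higher for palmitic minus linoleic acid were 0 under the 75th percentile filter, and lower were 0 with centred arrays, either other filter, repeated quantile normalization and without like-named paralogs. Higher for palmitic minus oleic acid was 1 after repeated quantile normalization. The cause of these shifts was not tested.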
